A study of Drosophila melanogaster with 4 samples.

Results

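The genes described here are the nuclear-encoded genes of oxidative phosphorylation, chosen by name as those whose symbol starts with *ND-*, *Sdh*, *UQCR-*, *COX* or *ATPsyn* in the dm6 annotation of *Drosophila melanogaster*. Genes on chromosome 4 and genes of the mitochondrial genome were left out. The rule gave 86 of the 13909 genes with a listed transcript, with 39 for complex I, 8 for complex II, 9 for complex III, 16 for complex IV and 14 for complex V. It is a rule of symbols and not a list of subunits, so that an assembly factor (*Sdhaf3*) and 24 paralogs came in, while some subunits with other names stayed out.

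Oxidative phosphorylation runs in the inner membrane of mitochondria. Complexes I and II take electrons from NADH and succinate, coenzyme Q and cytochrome c carry them on to complexes III and IV, and complexes I, III and IV pump protons that drive the ATP synthase, complex V. Most subunits are encoded in the nucleus and imported, whereas a small core of complexes I, III, IV and V is encoded in mitochondrial DNA, so that each of these complexes is built from transcripts of both genomes.

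RNA-seq was performed on total RNA from S2R+ cells, a line grown from late *Drosophila* embryos, with 2 libraries from wild-type cells and 2 from a CRISPR mutant that lacks the intronic enhancer of *Notch* (enhancer mutant). Both were cultured in the same medium. The mutant cells had been transfected with guide and Cas9 plasmids, selected with puromycin and isolated as clones by dilution, and how many clones gave the RNA is not stated. Unedited clones were not part of these data, so the deletion and any change acquired in cloning cannot be told apart. The labels number the replicates but do not say whether they came from separate cultures, so p-values measure the spread between these libraries, which may be technical.

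Library depth was 19410313 and 16240543 estimated counts in wild-type against 29605002 and 24880286 in the mutant. *Notch* had 160 and 126 CPM (the count as a share of its library, with libraries scaled by TMM) in wild-type against 38.1 and 35.3 in the mutant (log2 fold change -1.96, edgeR adjusted p = 9.46e-07). The hemocyte marker *srp* was present in every library, between 45.2 and 74.8 TPM (transcript abundance corrected for length and scaled to 1 sum per library), and *NimC1* had at most 2 counts. The summed TPM over all 7 markers of S2R+ cells and the hemocyte lineage was 88.5 to 99.2 in wild-type and 65.8 to 74.6 in the mutant. That of 3 neuron markers was 12.2 to 14.9 and 8.23 to 8.25, and that of 4 germ line markers 10.8 to 11.6 and 4.45 to 6.12. The muscle and fat body sums stayed below 1 TPM. On this scale the median of all genes was -0.36 (log2), and most of the sum of the S2R+ and hemocyte list was *srp*. Markers of 1 list went both ways. In the S2R+ and hemocyte list 1 marker was called higher and 3 lower, and in the germ line list *topi* was higher and *bam* lower. Their part in the results was not tested. In bulk samples, fewer cells of a type and less RNA per cell cannot be told apart.

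The transcripts of the 86 genes made up 1.05% and 1.06% of the estimated counts in wild-type against 1.02% and 1.08% in the mutant. The shares of the groups overlapped. In TPM, which also divides by transcript length, they held 2.84% and 2.64% in wild-type against 2.65% and 2.68% in the mutant, again with overlap.

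Of the 86 genes, 65 had enough counts to be tested. They comprised 61 of the 62 genes that are no paralog of another subunit and 4 of the 24 paralogs. The exception among the 62 was *ND-B8*, an accessory subunit of complex I, with 1 and 0 counts in wild-type against 3 and 0 in the mutant. Its annotated exons overlap those of *Gs1l* on the opposite strand. The 61 genes had between 286 and 29596 counts in a library, so that none of them entered the test through 1 condition alone.

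Among these 61 genes the mean level over the 4 libraries ran from 72.2 TPM for *ND-75*, the largest iron-sulfur subunit of complex I, to 2258 TPM for *ND-MLRQ*, whose human counterpart has been described as a subunit of complex IV. The middle gene of each complex stood at 162 TPM in complex I, 121 TPM among the subunits of complex II, 630 TPM in complex III, 703 TPM in complex IV and 582 TPM in complex V. In complex III, *UQCR-11* was highest with 1657 TPM, in complex IV *COX7B* with 1330 TPM, in complex V *ATPsynCF6* with 1220 TPM and in complex II *SdhB* with 202 TPM. The spread was widest in complex I, where the highest gene, *ND-MLRQ*, had 31.3 times the TPM of the lowest. The next gene of complex I, *ND-B12*, had 714 TPM. The spread was narrowest among the complex II subunits, at 2.15 times. Apart from *SdhB*, these top genes encode small proteins from short transcripts, for which the length correction of TPM is large.

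**Figure D1:**
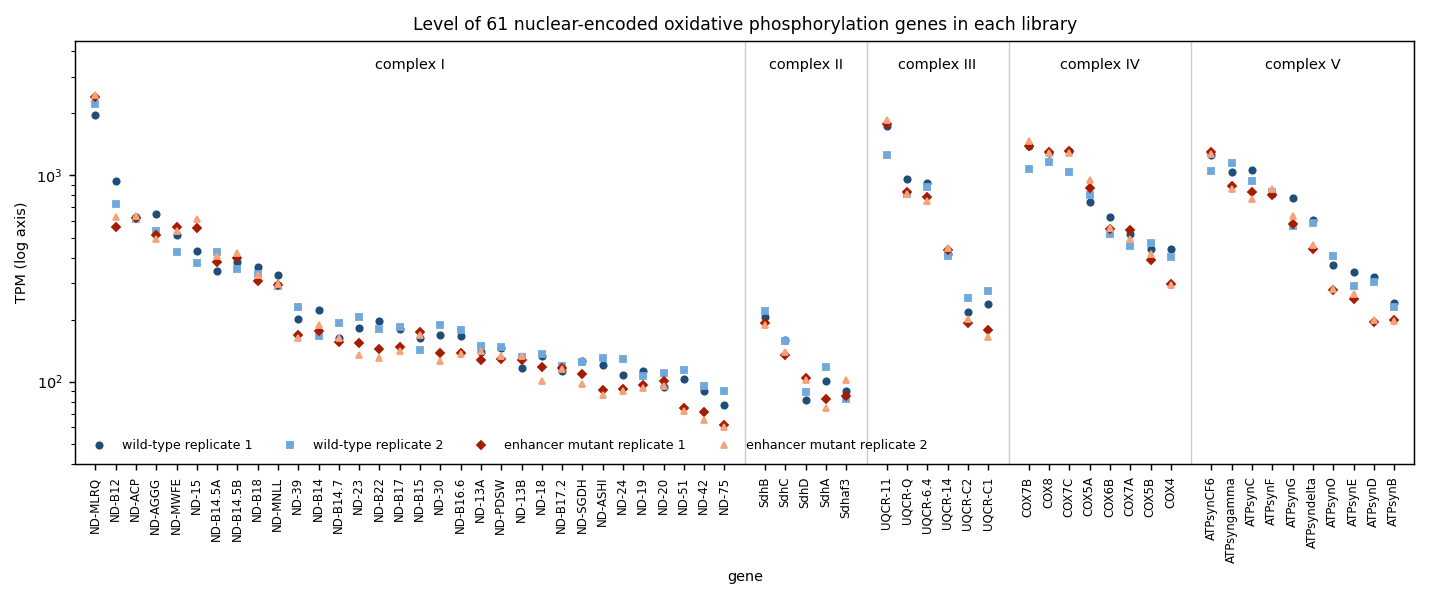
TPM of each of the 61 tested genes that are no paralog (log axis), by complex and in order of mean level, with 1 point per library. *ND-MLRQ* stands highest and *ND-75* lowest, and for most genes the distance between libraries is small beside the distance between genes.

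The 6 core subunits of complex I in the set form its NADH-binding and iron-sulfur arm. They had a lower median, 102 TPM, against 166 TPM over the 26 tested accessory subunits, but the 2 ranges overlapped. Within the core, *ND-23* was the highest at 169 TPM and *ND-75* the lowest. The libraries of a condition were close to each other: between the replicates the median absolute log2 difference over the 61 genes was 0.12 in wild-type and also in the mutant, with the largest at 0.37 for *ATPsynG* in wild-type and 0.36 for *Sdhaf3* in the mutant. In the mutant the difference was one-sided, with replicate 1 the higher library in 6 of 61 genes, against 30 of 61 in wild-type.

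Expression was then compared between the enhancer mutant and wild-type. Counts were normalized by TMM, which sets the typical gene to no change, and genes were called where edgeR's quasi-likelihood test gave an adjusted p below 0.05 and the log2 fold change was 0.5 or more in size. Genome-wide, 27.9% of the 8182 tested genes were called, 12.6% higher and 15.3% lower in the mutant. Of the 65 tested oxidative phosphorylation genes 6 were called higher and 2 lower, together 12.3%, and both lower genes were paralogs with very few counts. Among the 61 other genes the log2 fold changes lay between -0.29 and 0.81, and edgeR and DESeq2 called none lower (1 lower at an unadjusted edgeR p below 0.05). On the TPM scale, where the median of all genes was -0.36, limma called 3 of them lower, *UQCR-C1*, *ND-51* and *ATPsynD*. In either direction that setting called 3201 of the 8182 genes.

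On the adjusted p alone 23 of the 65 genes passed with a higher level (35.4%), against 24.5% of all genes, and 3 with a lower level, against 24.2%. The CPM values of both mutant libraries exceeded those of both wild-type libraries in 34 of the 65 genes and fell short of them in 9, where 37.7% and 37.9% of all genes did so. Among the 61 genes that are no paralog 34 exceeded and 6 fell short, and 1 passed the adjusted p with a lower level. The paralogs *ATPsynbetaL*, *ATPsynepsilonL* and *COX7CL* were kept by the filter through wild-type alone, which favoured a lower value. The median log2 fold change of the 65 genes was 0.18, against -0.004 over all genes, and 48 of them lay above 0. It was 0.27 without mutant replicate 1. This direction depends on the scaling: with library sizes alone the median was -0.015 (all genes -0.20) and on the TPM scale -0.20 (all genes -0.36), while relative to all genes it was 0.18 and 0.16.

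**Figure D2:**
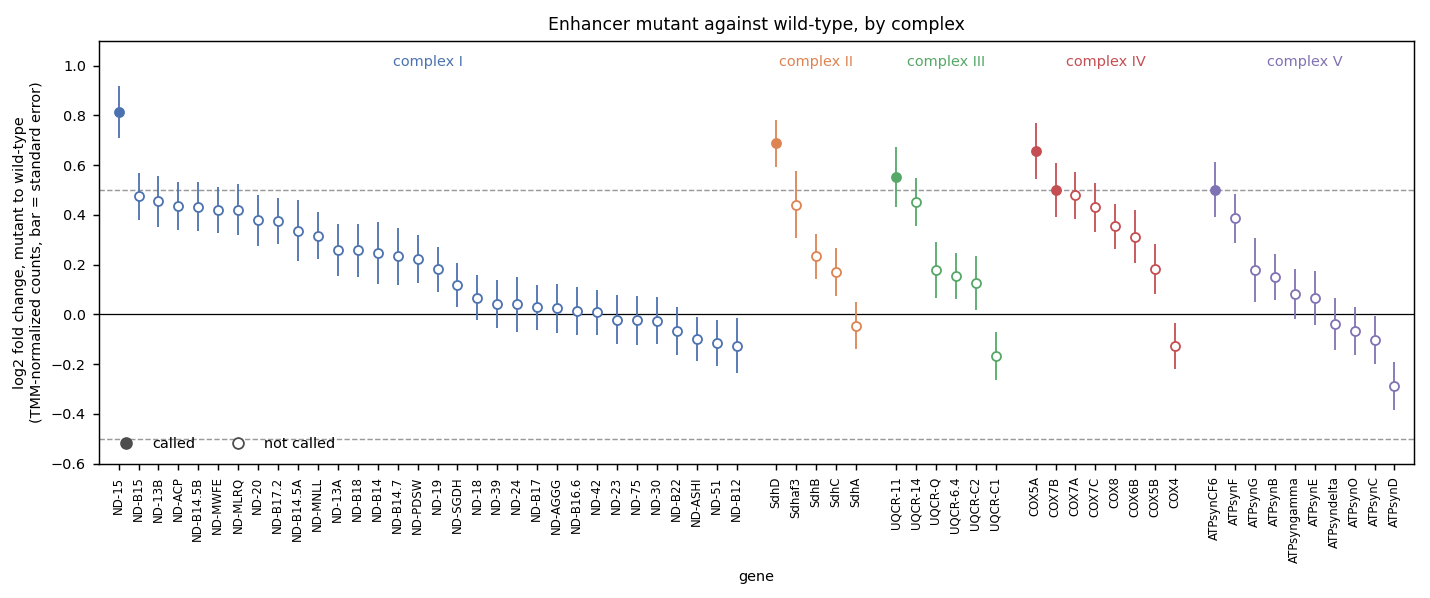
Log2 fold change of mutant to wild-type for the 61 tested genes that are no paralog, by complex, on TMM-normalized counts. Bars are standard errors, dashed lines mark the fold threshold of 0.5 and filled points the 6 called genes, all of which lie on the upper side, from 0.50 to 0.81.

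The largest change of the 61 was that of *ND-15* (FBgn0031228; chromosome 2L from 114726 to 156030, plus strand, in the Ensembl annotation with dm6 coordinates), an accessory subunit of complex I. It had 114.0 and 105.6 CPM in wild-type and 176.9 and 209.1 CPM in the mutant. Both mutant libraries thus lay well above both wild-type libraries. The log2 fold change was 0.81 (standard error 0.105, edgeR adjusted p = 0.000153), and *ND-15* was called under each of the 15 alternatives tried. On the TPM scale it rose as well, from 431 and 378 TPM to 556 and 612 TPM.

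*ND-15* has 10 listed transcripts, of which 2 carried nearly all of its TPM. The 486-base transcript took 57.7% and 52.2% of the gene's TPM in wild-type against 64.1% and 66.1% in the mutant. Its share was larger in both mutant libraries, so that it held most of the added TPM. Exons of *ND-15* overlap those of *CG3436* on the same strand and of *Pus10* on the other, which had log2 fold changes of 0.11 and 0.25 and were not called.

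In complex II, *SdhD* (FBgn0039112; chromosome 3R from 23759483 to 23760600, minus strand), a membrane anchor of succinate dehydrogenase, had 50.9 and 54.9 CPM in wild-type and 82.2 and 88.1 CPM in the mutant. The groups were clearly apart, and the log2 fold change was 0.69 (standard error 0.096, edgeR adjusted p = 0.000245). A single transcript is listed for it, and its exons overlap those of *PTPMT1* on the opposite strand. *PTPMT1* had 27.1 and 28.5 CPM in wild-type and 35.8 and 37.5 CPM in the mutant. It was not called but passed the adjusted p alone with a higher level (log2 fold change 0.40, edgeR adjusted p = 0.00558). The other anchor, *SdhC*, had 58.2 and 58.0 CPM in wild-type and 61.5 and 69.3 CPM in the mutant and was not called (0.17, edgeR adjusted p = 0.166).

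Neither catalytic subunit of complex II was called. *SdhA*, the flavoprotein, had 252 and 280 CPM in wild-type against 258 and 258 in the mutant (log2 fold change -0.045, standard error 0.094). *SdhB*, the iron-sulfur subunit, had 185 and 194 CPM in wild-type and 214 and 230 CPM in the mutant, without overlap but short of the test (0.23, edgeR adjusted p = 0.0529). The assembly factor *Sdhaf3* passed the adjusted p alone, with 16.8 and 16.3 CPM in wild-type and 19.7 and 25.4 CPM in the mutant (0.44, edgeR adjusted p = 0.0202). The 4 subunits of 1 complex thus ranged from -0.045 to 0.69, and differences between them were not tested.

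Complex IV, cytochrome c oxidase, had the highest median of the complexes, 0.39 over its 8 tested genes that are no paralog. Of the 8, 6 passed the adjusted p with a higher level and 2 of these were called, and 7 had both mutant libraries above both wild-type libraries. Over all genes 24.5% passed with a higher level, 12.6% were called higher and 37.7% were separated this way, and of the genes below 300 bases of effective length, where 4 of the 8 fall, 34.2% were called higher. *COX5A* (FBgn0019624; chromosome 3R from 11819359 to 11820299, plus strand), a peripheral subunit, had 252 and 279 CPM in wild-type and 379 and 459 CPM in the mutant. The difference was larger than that between replicates of either group (log2 fold change 0.66, standard error 0.113, edgeR adjusted p = 0.000891). Its transcripts kept their shares, with the main one at 88.5% to 88.9% of the TPM in every library. Exons of *glo* overlap on the other strand, and that gene stood at 0.16 and was not called.

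*COX7B* (FBgn0040793; chromosome 3L from 17425477 to 17426282, plus strand), a small subunit, had 185 and 156 CPM in wild-type and 226 and 257 CPM in the mutant. The groups did not overlap, with a gap only somewhat wider than that between replicates. Its log2 fold change of 0.50 (standard error 0.109, edgeR adjusted p = 0.00346) lay just over the threshold, and fell to 0.40 without wild-type replicate 2 and 0.42 without mutant replicate 2, where it was not called. Just under it lay *COX7A*, another small subunit, with 178 and 159 CPM in wild-type and 235 and 235 CPM in the mutant (0.48, edgeR adjusted p = 0.00194), which was not called although its adjusted p was smaller. It was called, at 0.57, without wild-type replicate 1.

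*COX4* and *COX5B* did not pass. *COX4* was the only one of these 8 *COX* genes with a negative value, at 189 and 175 CPM in wild-type and 161 and 173 CPM in the mutant (log2 fold change -0.13, standard error 0.093). *COX5B* had 134 and 144 CPM in wild-type and 147 and 169 CPM in the mutant (0.18, edgeR adjusted p = 0.152). Between them lay no sharp break from the rest: *COX6B*, *COX8* and *COX7C* passed the adjusted p alone with 0.31 to 0.43. On the TPM scale the median of the 8 genes was 0.089, the only complex with a median above 0 on that scale.

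In complex III, the cytochrome bc1 complex, the median over 6 genes was 0.17. *UQCR-11* (FBgn0260008; chromosome 3L from 25120709 to 25126171, plus strand), a small accessory subunit, had 252 and 197 CPM in wild-type and 315 and 344 CPM in the mutant. The wild-type libraries differed from each other nearly as much as the nearest mutant library did from them (log2 fold change 0.55, standard error 0.120, edgeR adjusted p = 0.00356). The call was lost without wild-type replicate 2 (0.40) and without mutant replicate 2 (0.50, where the adjusted p no longer passed). *UQCR-14* passed the adjusted p alone (0.45, edgeR adjusted p = 0.00326).

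The core proteins of complex III, which face the matrix, were not called by edgeR. *UQCR-C1* had 313 and 356 CPM in wild-type and 297 and 300 CPM in the mutant, lower in both but not past the test (log2 fold change -0.17, edgeR adjusted p = 0.179). On the TPM scale limma called it lower (-0.58), where the median of all genes was -0.36. *UQCR-C2* had 256 and 295 CPM in wild-type and 280 and 321 CPM in the mutant, with overlap (0.13, standard error 0.108).

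In complex V the median over 10 genes was 0.074, the lowest of the 5 complexes. *ATPsynCF6* (FBgn0016119; chromosome 3R from 23355220 to 23356064, minus strand), coupling factor 6 of the peripheral stalk, had 346 and 283 CPM in wild-type and 433 and 458 CPM in the mutant. It lay barely over the threshold (log2 fold change 0.50, standard error 0.112, edgeR adjusted p = 0.00396) and under it without wild-type replicate 2 (0.37) and without mutant replicate 2 (0.47). *ATPsynF*, a membrane subunit, passed the adjusted p alone, with 226 and 233 CPM in wild-type and 279 and 322 CPM in the mutant (0.39), and was called, at 0.50, without mutant replicate 1.

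In the other direction, *ATPsynD*, another stalk subunit, had 140 and 134 CPM in wild-type and 106 and 119 CPM in the mutant. Its log2 fold change of -0.29 was the lowest of the 61 genes, and it passed the adjusted p alone (edgeR adjusted p = 0.0303). *ATPsynC*, which forms the rotating ring, was among the most abundant at 972 and 915 CPM in wild-type and 877 and 880 CPM in the mutant and did not pass (-0.10, standard error 0.098). Its transcripts did shift in share: the 722-base form held 44.0% and 31.9% of the TPM in wild-type against 53.6% and 54.7% in the mutant, while the 1439-base form held 55.4% and 67.4% against 45.7% and 44.6%. These shares are estimates from overlapping isoforms and were not tested.

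Complex I held 32 of the 61 genes, and *ND-15* was its only called member (3.12%, against 12.6% of all genes called higher). Of the 26 tested accessory subunits, 10 passed the adjusted p, all with a higher level (38.5%, against 24.5% of all genes), and the median log2 fold change was 0.24. Of the 6 core subunits 1 passed, *ND-20*, with 73.3 and 84.2 CPM in wild-type and 99.6 and 105.0 CPM in the mutant (0.38, edgeR adjusted p = 0.0112). The core median was -0.022, close to that of all genes.

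The electron input subunits of the core were not called by edgeR. *ND-75* had 173 and 196 CPM in wild-type and 174 and 189 CPM in the mutant (log2 fold change -0.023, standard error 0.098). *ND-51*, which binds NADH and the flavin, had 137 and 146 CPM in wild-type and 126 and 135 CPM in the mutant (-0.12, standard error 0.092). Near the upper end stood *ND-B15*, an accessory subunit just under the threshold, with 31.7 and 29.4 CPM in wild-type and 41.6 and 43.4 CPM in the mutant (0.47, edgeR adjusted p = 0.00202). It was called without wild-type replicate 1 (0.53) and without mutant replicate 1 (0.52).

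*ND-MLRQ*, the gene with the highest TPM, had 260 and 297 CPM in wild-type and 358 and 388 CPM in the mutant. It passed the adjusted p without reaching the fold threshold (log2 fold change 0.42, edgeR adjusted p = 0.00608), and reached it without wild-type replicate 2 (0.53). The 2 genes with a prefix of the set that were left out because they lie on chromosome 4, *ATPsynbeta* and *ND-49*, had log2 fold changes of 0.40 and 0.26 and were not called. *ATPsynbeta* passed the adjusted p alone (edgeR adjusted p = 0.00902) and was called, at 0.51, with the length trend of all genes as an offset.

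Transcript length moved with the fold change across these genes. Many accessory subunits of complex I and of complex IV come from short transcripts, and *ND-75*, *ND-51* and *SdhA* from long ones. Over the 61 genes Pearson's r between log2 fold change and the log of effective length was -0.48 and Spearman's rho -0.56, as a description across genes, which share libraries and are not independent replicates. Over all 8182 genes the values were -0.14 and -0.26.

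Set beside all tested genes of the same length, the medians of the members lay close. Below 300 bases of effective length the 25 members had a median log2 fold change of 0.39, against 0.36 over 336 genes. From 300 to 600 bases the medians were 0.13 over 24 members and 0.22 over 776 genes. From 600 to 1200 bases they were 0.062 over 8 members and 0.082 over 1804 genes, and above that -0.080 over 4 members and -0.089 over 5266 genes. These limits were set after the values were seen.

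With the length trend of all genes taken out as an offset, an alternative also chosen after seeing the values, the median of the 65 members was 0.10 against 0.12 over all genes. Of the 6 higher calls *ND-15*, *SdhD* and *COX5A* remained. The 2 wild-type libraries also differed from each other with length: over the 61 genes the log2 ratio of replicate 1 to replicate 2 had an r of -0.50 with the log of effective length, against 0.27 in the mutant pair.

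**Figure D3:**
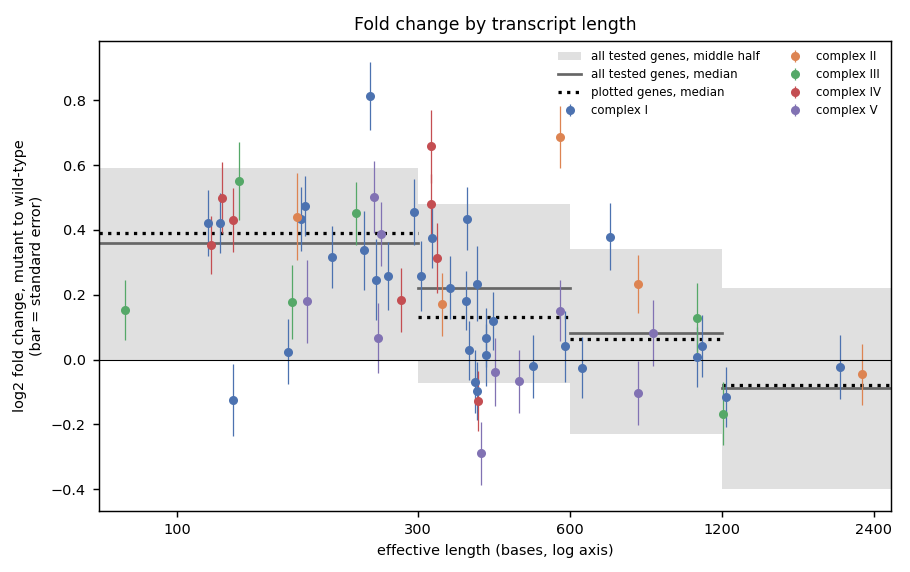
Log2 fold change against effective length (log axis) for the 61 tested genes that are no paralog, with standard errors. Grey boxes hold all tested genes between the lower and the upper quartile in 4 length ranges, with their median as a solid line and that of the plotted genes as a dotted line; the lines run close together, from 0.36 and 0.39 in the shortest range to -0.089 and -0.080 in the longest.

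The members' genomic position was compared too, since the deleted enhancer lies on chromosome X. None of the 12 tested genes on chromosome X was called, where 31.2% of all tested genes of that chromosome were. On the adjusted p alone 5 passed with a higher level (41.7%, against 20.8% of all tested genes of that chromosome). At an unadjusted p below 0.05 edgeR gave 6 of the 12, and DESeq2 called 0. Their median log2 fold change was 0.16, beside 0.18 for the 49 tested genes on chromosomes 2 and 3, of which 6 were called higher (12.2%, against 12.6% of all tested genes there). Exons of 28 of the 61 genes overlap those of another listed gene, mostly on the other strand. The strand of the libraries is not given in the sources used here. Of these 28 genes 3 were called higher (10.7%), as were 3 of the 33 without such an overlap (9.09%), against 12.6% of all tested genes. The 3 called genes with an overlap were *ND-15*, *SdhD* and *COX5A*. These are the higher calls that remained with the length trend as an offset. Whether reads of the overlapping genes add to their counts was not tested.

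The subunits encoded in the mitochondrial genome had lower values than the nuclear ones. Of the 13 listed, 11 were tested, all 11 had a negative log2 fold change and 6 were called lower, beside 15.3% of all genes. Their median was -0.50 on TMM-normalized counts, -0.70 with library sizes alone and -0.92 on the TPM scale, and relative to all genes it lay between -0.66 and -0.32 under the alternatives. All genes moved down as well, to a median of -0.20 with library sizes alone and -0.36 on the TPM scale. In either direction 2544 and 3201 of the 8182 genes were called there, against 2285 with TMM. The median of the nuclear genes was also below 0 with library sizes alone (-0.015) and on the TPM scale (-0.20), so that the opposite signs hold for TMM but not for those scales. The number called lower was 4 with DESeq2, 9 with library sizes alone and 10 on the TPM scale, and 9 without wild-type replicate 1, 5 without wild-type replicate 2, 5 without mutant replicate 1 and 4 without mutant replicate 2. Without wild-type replicate 2, 9 of 13 tested genes were below 0 and 1 was called higher, and on the TPM scale 10 of 11 were below 0.

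*mt:CoI*, the catalytic subunit of complex IV, had 6838 and 7290 CPM in wild-type and 4990 and 4968 CPM in the mutant (log2 fold change -0.50, standard error 0.116, edgeR adjusted p = 0.00467). The groups did not overlap, but the value sat at the threshold, and was -0.45 to -0.49 and not called when wild-type replicate 2, mutant replicate 1 or mutant replicate 2 was left out. *mt:ATPase6*, the proton channel subunit of complex V, had 1038 and 852 CPM in wild-type and 584 and 484 CPM in the mutant (-0.82, edgeR adjusted p = 0.000476). In complex I, *mt:ND5* had 1249 and 1316 CPM in wild-type and 799 and 730 CPM in the mutant (-0.75, edgeR adjusted p = 0.000226). These 3 genes sit in the membrane parts of their complexes.

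*mt:ND4* had 923 and 903 CPM in wild-type and 563 and 531 CPM in the mutant (log2 fold change -0.74, edgeR adjusted p = 0.000161). *mt:ND3* had 770 and 495 CPM in wild-type and 320 and 209 CPM in the mutant (-1.26, edgeR adjusted p = 0.000861), with the replicates of both groups far apart. Other mitochondrial genes were less steady. *mt:ND4L* was called (-2.10, edgeR adjusted p = 0.0458) although its groups overlapped, with 1.61 and 23.5 CPM in wild-type and 2.90 and 2.83 CPM in the mutant, and without wild-type replicate 2 its value was 0.84.

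*mt:ND2* had 10.3 and 195 CPM in wild-type and 98.6 and 82.4 CPM in the mutant and was not called. *mt:Cyt-b*, the haem subunit of complex III, had 3778 and 4696 CPM in wild-type and 3137 and 2912 CPM in the mutant and passed the adjusted p alone (log2 fold change -0.49, edgeR adjusted p = 0.0108). *mt:ATPase8* and *mt:ND6* were not tested, with at most 21 counts in a library. Mitochondrial genes lie close together on a small genome and their transcripts are processed from long precursors, so counts of neighbours need not be independent.

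Within each complex that draws on both genomes, the summed TPM of the mitochondrial subunits was set over that of the nuclear genes. In complex I this ratio was 1.49 and 1.18 in wild-type against 0.653 and 0.489 in the mutant. Much of the mitochondrial sum of complex I came from 1 gene, *mt:ND3*. It held 9618 of 14388 and 5569 of 11260 TPM in wild-type, and 3277 of 6069 and 1980 of 4618 TPM in the mutant. In complex III the ratio was 1.01 and 1.54 against 0.725 and 0.65. In each case the higher mutant ratio was below the lower wild-type ratio.

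The ratio was highest in complex IV, at 3.07 and 4.67 in wild-type against 2.21 and 2.03 in the mutant. In complex V it was 0.465 and 0.428 against 0.237 and 0.176. Summed over the 4 complexes and *Sdh* genes it was 1.51 and 1.81 against 0.95 and 0.825, again without overlap. A ratio within a library does not depend on how the libraries are scaled, but with 2 libraries a group an exact two-sided permutation test cannot give a p below 0.333, and a ratio shows unequal change rather than that either genome's transcripts stayed constant.

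**Figure D4:**
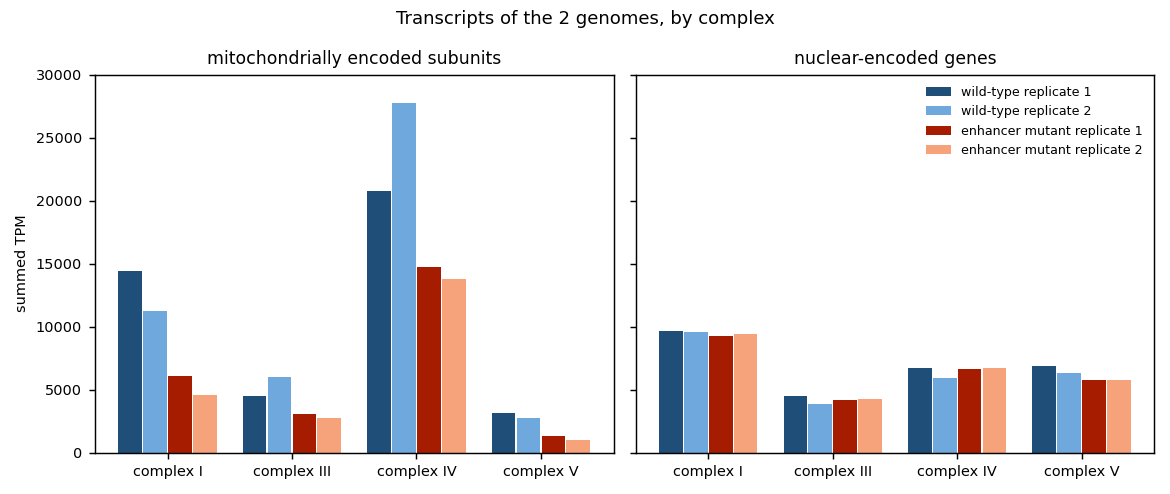
Summed TPM of mitochondrially encoded subunits (left) and of nuclear-encoded genes (right) in each library, for the 4 complexes that draw on both genomes. The mitochondrial bars are lower in both mutant libraries in every complex (for complex IV 20741 and 27712 in wild-type, 14729 and 13744 in the mutant), while the nuclear bars of complexes III and IV overlap and those of complexes I and V are lower in the mutant by a smaller share.

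The 24 paralogs, genes named after a subunit with an added L, were nearly silent beside their partners. Of the 24, 11 had 0 counts in every library and 16 at most 3 counts in every library, whereas their partner genes had at least 1016 counts in the lowest library. A count of 3, taken as the floor, corresponds to 0.107 to 0.171 CPM in these libraries. The highest level relative to a partner was 1.25% of the partner's TPM, for *COX4L* in mutant replicate 2. Several such paralogs are known from *Drosophila* as testis genes. Reads shared with a near-identical copy can be split by the quantification, so that values this low are uncertain.

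Both genes of the set that were called lower belong here. Each was kept for the test by its wild-type libraries alone, as no mutant library reached the filter's limit of 0.452 CPM, so that a lower value was favoured by the filter and their calls are given as a description only. *ATPsynbetaL*, the paralog of the catalytic beta subunit, had 12 and 12 counts in wild-type against 3 and 1 in the mutant, a ratio of mutant to wild-type of 0.125 with an exact 95% counting interval of 0.0314 to 0.363 (edgeR adjusted p = 0.00414). *ATPsynepsilonL*, the paralog of *sun*, had 22 and 13 counts in wild-type against 13 and 6 in the mutant, a ratio of 0.406 with an interval of 0.219 to 0.729 (edgeR adjusted p = 0.0438). The intervals cover counting error only, and DESeq2 called neither gene. The call of *ATPsynbetaL* was lost without mutant replicate 2 (log2 fold change -2.49) and that of *ATPsynepsilonL* without wild-type replicate 1 (-0.99), mutant replicate 1 (-1.77) or mutant replicate 2 (-0.95). *COX4L* had 33 and 15 counts in wild-type against 18 and 48 in the mutant, with overlap, and *COX7CL* 9 and 12 against 3 and 10. *COX7CL* was also kept for the test by its wild-type libraries alone.

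**Figure D5:**
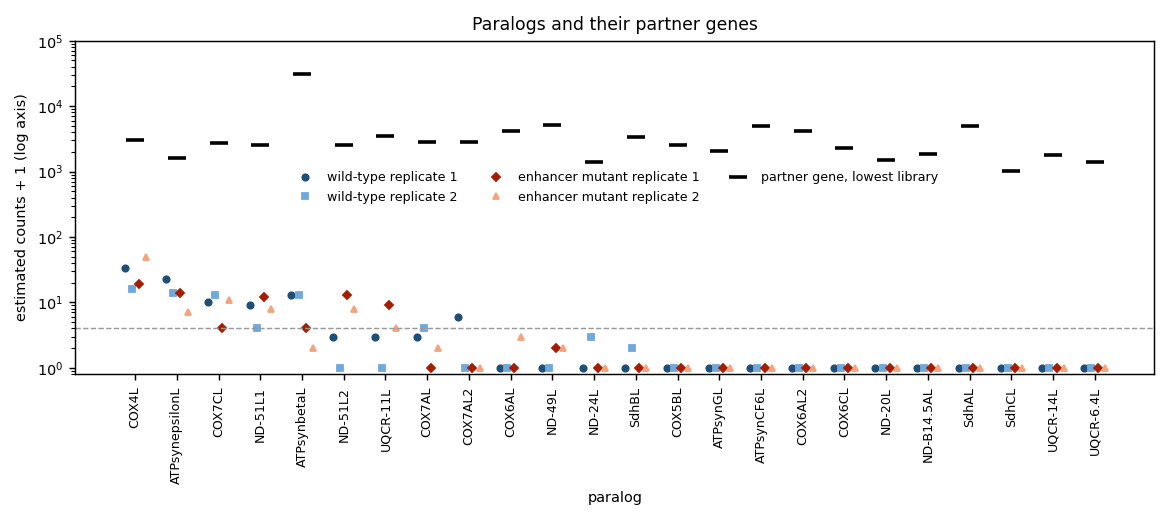
Estimated counts plus 1 (log axis) of the 24 paralogs in each library, with the lowest library of each partner gene as a black bar and the floor of 3 counts as a dashed line. The partners stand at 1016 counts or more, and 16 paralogs do not rise above the floor.

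Other genes of the pathway were taken from lists of known function. Of 8 tested subunits and carriers that lack the prefixes, 0 were called by edgeR or DESeq2 (2 at an unadjusted edgeR p below 0.05). *levy* (a complex IV subunit, log2 fold change 0.27) and *Cyt-c-p* (cytochrome c, 0.30) passed the adjusted p alone. This share of 25% is close to the 24.5% of all genes that passed with a higher level. *cype*, also a complex IV subunit, was at -0.19 and was not called, with 205 and 132 CPM in wild-type and 139 and 158 CPM in the mutant. The median of the 8 genes was -0.026. *blw*, the alpha subunit of the ATP synthase, had 1067 and 968 CPM in wild-type and 985 and 900 CPM in the mutant, with overlap. Of 7 tested assembly factors 0 were called by edgeR or DESeq2 (2 at an unadjusted edgeR p below 0.05). *Surf1*, a factor of complex IV, passed the adjusted p alone at 0.43 (14.3% of the list, against 24.5% of all genes).

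In the lists of metabolic genes and carriers around the chain 4 of 27 tested genes were called, each lower in the mutant. This share of 14.8% is close to the 15.3% of all genes called lower. *Coq8*, a kinase-like protein of coenzyme Q synthesis, had 42.8 and 46.2 CPM in wild-type and 24.7 and 25.3 CPM in the mutant (log2 fold change -0.83, edgeR adjusted p = 6.47e-05), the only one called of 9 in its list. *Mdh2*, mitochondrial malate dehydrogenase, had 152 and 141 CPM in wild-type and 97.4 and 103 CPM in the mutant (-0.55, edgeR adjusted p = 0.000908), the only one of 13 genes of pyruvate dehydrogenase and the tricarboxylic acid cycle. It was at -0.49 and not called without wild-type replicate 1 or without mutant replicate 1. The 3 subunits of succinate-CoA ligase, the step before complex II, passed the adjusted p alone with a higher level, at 0.27 to 0.42. They were the only ones of the 13 genes to do so (23.1%, against 24.5% of all genes).

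Among 5 tested carriers and channels, *Ant2*, an ADP/ATP translocase, had 15.9 and 13.7 CPM in wild-type and 4.12 and 4.71 CPM in the mutant (log2 fold change -1.75, edgeR adjusted p = 1.75e-05). Its neighbour *sesB*, the main translocase here, had 1437 and 1550 CPM in wild-type and 1545 and 1704 CPM in the mutant and was not called (0.12). *Porin2*, a relative of the outer membrane channel, was low, with 35 and 33 counts in wild-type against 15 and 7 in the mutant (-2.05, edgeR adjusted p = 0.00197). It reached the 2 libraries the filter asks for through wild-type, as 1 mutant library was over the limit, which favours a lower value. Of 12 tested regulators of mitochondrial genes and DNA 0 were called by edgeR or DESeq2 (5 at an unadjusted edgeR p below 0.05), and 4 passed the adjusted p alone with a lower level (33.3%, against 24.2% of all genes): *srl*, the fly counterpart of PGC-1 (-0.43), *bsf*, which binds mitochondrial RNA (-0.45), *PolG1*, the mitochondrial DNA polymerase (-0.38), and *mtDNA-helicase* (-0.25).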

How the data were processed

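Total RNA libraries of S2R+ cells were sequenced as paired-end reads. The authors quantified transcripts with Salmon 0.10.2 (version from the submitters' processing notes) on a dm6 transcript index, with selective alignment and a correction for GC bias. For 30070 transcripts they deposited the estimated count, not normalized, the TPM value, corrected for effective length and scaled to a fixed sum per library, and the lengths. The annotation release and the strand of the libraries are not given in the sources used here.

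Transcripts were matched to genes with the Ensembl annotation (29850 matched; the other 220 held 0.230% to 0.292% of a library's counts), and the estimated counts of a gene's transcripts were added and rounded. edgeR 4.0.16 in R 4.3.3 (filterByExpr, TMM, glmQLFit, glmQLFTest) was fitted to all genes with condition as the only term, and p-values were adjusted by Benjamini-Hochberg over the 8182 genes tested. The standard error is the absolute log2 fold change over the square root of F. The fit was tested on simulated data. A fold limit of 0.5 was read as a log2 value. Log2 TPM was tested with limma 3.58.1 (pseudocount 1), and DESeq2 1.42.0 was run as another alternative. Intervals cover counting error only.

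The members, lists and tests were chosen with earlier results of these data known. Genes named singly were the targeted gene, in each complex up to 4 called genes and the most abundant one, the catalytic and core subunits, the paralogs, the 2 genes nearest to the fold threshold on each side and called genes of the lists; others were named after their values were seen. Of 13 assembly factors 6 symbols were not matched, as were 1 of 10 coenzyme Q genes and 1 of 13 regulators.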

Additional observations from a re-analysis of the deposited data

How the results depend on the processing

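Under 15 alternatives (14 fixed at the start) *ND-15* stayed called, and *SdhD* and *COX5A* did under 13, each except the TPM scale and unadjusted library sizes. The number of members called higher, 6, became 1 with library sizes alone, 1 for TPM values, 16 with an offset for effective length, 23 on the adjusted p alone, 3 with the length trend as an offset, and 3 to 13 with each library left out (10 without wild-type replicate 1, 13 without mutant replicate 1, 3 without mutant replicate 2). The number called lower, 2, became 0 with DESeq2, 1 with no filter on low counts, 0 with at least 10 counts in every library, 1 with the effective length offset, 5 on the TPM scale, and 0 to 2 with each library left out. The member median of 0.18 became -0.20 on the TPM scale and -0.015 with library sizes alone, and 0.13 to 0.27 with each library left out. Genome-wide, 3984 genes passed the adjusted p alone, and 1773 to 2329 were called with each library left out; DESeq2 called 1986 of 8642. Beyond the members, *mt:ND4L* ranged from -3.03 without wild-type replicate 1 to 0.84 without wild-type replicate 2. The causes were not tested.

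The replicate numbers are shared by both conditions but are not said to mark a culture or day. Same-numbered libraries deviated together with a correlation of 0.223 over all tested genes and 0.407 over 4643 genes with a log2 CPM of at least 5. Blocking on the replicate number gave 2276 calls genome-wide, all 8 member calls were kept, and *mt:ND4L* lost its call (log2 fold change -1.59). Depth limits the 16 paralogs and *ND-B8* that had at most 3 counts in every library.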
